A study of Xenopus laevis with 6 samples.

Results

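Gene expression was compared between the offspring of 3 matings of the African clawed frog Xenopus laevis, with all 6 deposited libraries of the series in the comparison. Each library held polyadenylated RNA of a single whole embryo at stage 11.5, in mid to late gastrulation. From every mating came 1 embryo left uninjected (control, n = 3) and 1 embryo that had received 100 pg of dkk mRNA, delivered animally to both blastomeres at the 2-cell stage (dkk, n = 3). The 2 embryos of a mating are siblings and are the replicates here, with treatment kept as a term of the model, and the difference between dkk and control embryos is not reported. The labels give no strain, age or identity of the parents, so a mating stands for 1 mating pair of unknown genotype.

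A frog egg is loaded by its mother with RNA and protein that direct the first cell cycles, and the embryo's own genome is switched on only at the midblastula transition, shortly before gastrulation. An embryo at gastrulation therefore carries what is left of the maternal store together with its own transcripts, and both can vary with the parents. Xenopus laevis arose by the joining of related genomes, so that many genes exist as an L and an S copy (homeologs), each named here by its ending.

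Reads in genes numbered 17460820 to 19880568 per library, and 30087 to 31271 genes had a read. The share of reads with more than 1 alignment was 17.4% and 17.6% in mating 1, 15.9% and 16.3% in mating 2 and 16.8% and 16.6% in mating 3. Reads outside genes made up 8.80% and 8.31%, 7.58% and 7.61%, and 8.28% and 8.33% in the same order. The scaling factors of TMM, which corrects for library composition, were 0.983 and 0.985 in mating 1, 0.942 and 0.926 in mating 2, and 1.06 and 1.12 in mating 3. The share of reads with more than 1 alignment and the scaling factor differed between all 3 matings without overlap. Reads outside genes set only mating 2 apart, and matings 1 and 3 overlapped. The part of these measures in the results below was not tested. The genotype of the parents, the quality of the eggs, the exact age of the embryos within the stage and any separate handling of a pair all go with the mating and cannot be told apart. Transcript lengths were not used here, and whether the differences between matings follow transcript length was not tested. In RNA of whole embryos, fewer cells of a type and less RNA per cell cannot be told apart either.

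Siblings resembled each other more than embryos of different matings did, although their treatment differed. The standard deviation over 22892 genes of the log2 difference between 2 embryos was 0.659, 0.695 and 0.610 for the sibling pairs of matings 1 to 3. It was 0.869 to 1.1 for the 12 pairs of embryos from different matings, and the 2 ranges did not overlap. Genes that differed over 8-fold numbered 118, 121 and 100 within the sibling pairs and 302 to 515 between matings.

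**Figure D1:**
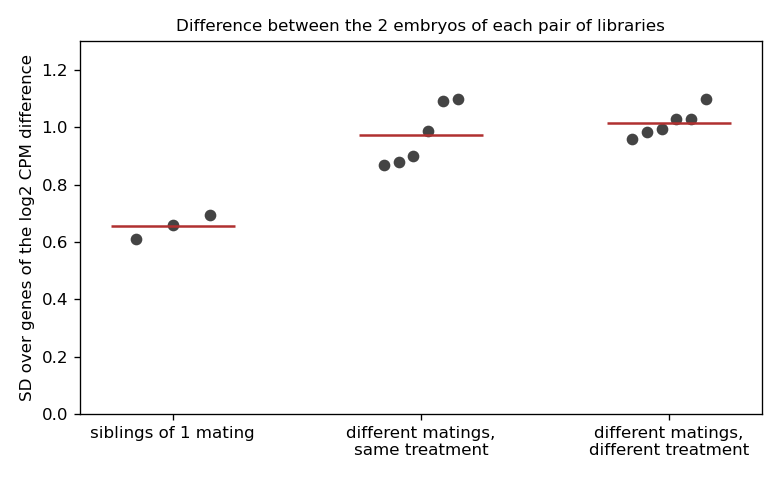
Standard deviation over all tested genes of the log2 CPM difference between 2 embryos (vertical axis, log2 units), 1 point for each of the 15 pairs of embryos, with the mean of each class as a red line. The 3 sibling pairs lie at 0.610 to 0.695 and all pairs from different matings at 0.869 or above.

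A difference between matings was found for 5204 of 22892 genes, which is 22.7% (edgeR quasi-likelihood F test, adjusted p below 0.05), and 9426 genes had an unadjusted p below 0.05. The counts were largest for mating 3 when all 6 embryos were fitted, but not in every subset. Among uninjected embryos alone, the standard deviation of the log2 difference was 0.901 between matings 1 and 2, 0.988 between 1 and 3 and 0.880 between 2 and 3, and without dkk embryo 3 more genes differed between mating 1 and the others (3756) than between mating 3 and the others (1950). Between matings 3 and 1, 4712 genes differed (20.6%), 2130 higher and 2582 lower in mating 3, a split that became 2480 and 2332 under upper-quartile scaling. Between matings 3 and 2 the number was 3101 (13.5%), with 1153 higher and 1948 lower in mating 3, or 1506 and 1526 under that scaling. Matings 2 and 1 differed in 1319 genes (5.76%), 809 of them higher and 510 lower in mating 2. The 2 siblings of a mating differ in treatment, and the model removes 1 treatment effect common to all matings. The p-values therefore rest on how far the sibling differences depart from that common effect, with the spread partly shared across genes. They do not measure the spread between equally treated siblings, nor the spread between matings of the same parents. Leaving out control embryo 3 raised the count of 5204 to 8525. The 4712 became 1950 without control embryo 1, 2314 without dkk embryo 1 and 2808 without dkk embryo 3. The 3101 became 734 without dkk embryo 2, 1573 without dkk embryo 3 and 5805 without control embryo 3. The 1319 became 567, 839, 368, 644, 3584 and 3306 when control 1, dkk 1, control 2, dkk 2, control 3 and dkk 3 were left out.

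Each mating was then set against the mean of the other 2. In mating 1, 1657 genes (7.24%) were higher and 1378 (6.02%) lower. Mating 2 had 963 higher (4.21%) and 416 lower (1.82%), or 675 and 455 with upper-quartile scaling and 648 lower with DESeq2. For mating 3 the counts were 2337 higher (10.2%) and 2623 lower (11.5%), or 2947 and 2241 with upper-quartile scaling. Both embryos of mating 1 lay above the other 4 embryos in 14.9% of all tested genes and below them in 15.4%. The shares were 12.3% and 11.5% for mating 2, and 20.9% and 20% for mating 3. Among the called genes, 1324 had both mating 1 embryos above the other 4 and 1351 below, against 1023 and 647 for mating 2 and 1601 and 1998 for mating 3. In both directions together, mating 1 had 3035 genes, or 1002, 1281, 1741 and 5577 without control 1, dkk 1, control 2 and control 3. Mating 2 had 1379, or 509, 262 and 4403 without control 2, dkk 2 and control 3. Mating 3 had 4960, or 2834 without dkk 2 and 1950 without dkk 3.

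The differences between matings recurred in the 2 treatment arms, which share no embryo. Across 22892 genes, the log2 difference between matings 3 and 1 in uninjected embryos had a Pearson correlation of 0.677 with that in dkk embryos. The values were 0.631 for matings 2 and 1 and 0.602 for matings 3 and 2. Genes are not independent replicates, and siblings share their mating in both arms. Of the 4733 genes that differed over 2-fold between uninjected embryos of matings 3 and 1, 89.5% had the same sign in dkk embryos, against 75.1% of all tested genes.

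Some genes were read at a steady level in 2 matings and almost not at all in the other. The clearest was nt5c1a.S, a copy of the gene of a cytosolic nucleotidase that turns AMP into adenosine. Levels are given in CPM, the reads of a gene per 1000000 reads in tested genes, with library sizes scaled by TMM. nt5c1a.S lay at 64.9 and 67.1 CPM in the control and dkk embryo of mating 1, and at 27.6 and 28.0 CPM in mating 2. In mating 3 it had 0.151 and 0.0901 CPM, or 3 and 2 reads (adjusted p = 7.37e-05, edgeR). The 3 matings did not overlap. The other copy, nt5c1a.L, lay at 52.4 to 66.9 CPM in all 6 embryos and was not called (adjusted p = 0.649).

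Counted by a fixed rule, 6 genes had at most 3 reads in both embryos of 1 mating and at least 5 CPM in each of the other 4, and 11 genes had at least 5 CPM in both embryos of 1 mating and at most 3 reads in each of the others. No gene met the same rule with exactly 0 reads, and the limit of 3 reads was set after that was seen. A count of 0 leaves room for 0.135 to 0.175 CPM in these libraries. Within siblings, 19, 9 and 15 genes of matings 1 to 3 had at most 3 reads in 1 embryo and at least 5 CPM in the other. Of the 17 genes that set a mating apart, 5 carry a name.

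Among these, scgn.L, which encodes the calcium sensor secretagogin, was read at 22.6 and 24.0 CPM in mating 2, with 1 read in control embryo 1 and 0 in the other 3 embryos. hnf4g.L, a gene of a nuclear receptor, had 224 and 103 reads in mating 2 and at no more than 2 reads elsewhere. irf3.L, which encodes a transcription factor of the interferon response, had 6.01 and 6.92 CPM in mating 1 and at most 3 reads in each other embryo. cd38.L, the gene of an enzyme that consumes NAD, had 10.5 and 13.4 CPM in mating 3 and 1 read in the other 4 embryos together. The rule itself required both siblings of 1 mating to lie far above the rest, so that pattern is no further result. The adjusted p-values were 0.00048, 0.000744, 0.00137 and 0.000744 in that order (edgeR). These 4 genes passed the filter of the test only through the mating where they are high, so the p-values are not separate evidence.

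Further genes with large differences, most of them picked by a rule of size, are given mating by mating. That rule also required both siblings of the mating to lie apart from the other 4 embryos, so this is no further result. Genes with few reads outside 1 mating passed the filter of the test through that mating alone. In mating 1, tp53i3.S, a quinone oxidoreductase gene known as a p53 target in mammals, lay at 20.4 and 21.4 CPM against 0.112 to 0.541 CPM elsewhere, a log2 difference of 5.88 ± 0.40 (SE). The kinesin motor gene kif1a.S (4.49 and 2.90 CPM in mating 1, at most 0.303 elsewhere) and morc1.S, of a germ line ATPase family (24.9 and 11.6 CPM, at most 1.22 elsewhere), were also high in mating 1. The call of morc1.S was lost without either embryo of mating 2 (adjusted p = 0.0608 and 0.0612, edgeR). podxl.L, a sialomucin gene, was called high in mating 1 as well, but its siblings lay at 0.583 and 15.6 CPM. In that gene the dkk embryo carries most of the difference, and the call was lost without the treatment term (adjusted p = 0.0586, edgeR).

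The cell adhesion gene sdk2.S was the most abundant of the 5 genes that the rule names as low in mating 1. It had 1.34 and 1.45 CPM there, 86.0 and 55.8 CPM in mating 2 and 91.4 and 94.8 CPM in mating 3, a log2 difference of -5.85 ± 0.26 (SE; adjusted p = 0.000295, edgeR). dtx3l-like.L, named after a ubiquitin ligase, had 0 and 1 read in mating 1, 12.6 and 10.9 CPM in mating 2 and 3.38 and 4.64 CPM in mating 3. The collagen VI gene col6a1.L and the sperm protein gene spa17.1 had 0 reads in both mating 1 embryos and lay between 1.04 and 5.24 CPM in the others. dok1.S, of a docking protein of tyrosine kinases, was low in mating 1 and high in mating 3, where it reached 5.40 and 6.22 CPM.

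Mating 2 was set apart by postn.L, the gene of the matrix protein periostin, at 20.3 and 19.6 CPM there against at most 0.483 CPM in the other 4 embryos (log2 difference 6.62 ± 0.42, SE; adjusted p = 0.000646, edgeR). The S copy of amer1, a regulator of the β-catenin destruction complex, had 4.75 and 6.36 CPM in mating 2 and 0 reads in every other embryo, while amer1.L lay at 44.9 to 78.0 CPM throughout. tbl1x.S, of a corepressor subunit, had 2.73 and 3.62 CPM in mating 2 and 0 reads in the other embryos except for 3 reads in dkk embryo 3. DESeq2 did not call these 2 genes, with adjusted p = 0.271 for amer1.S and 0.143 for tbl1x.S. Low in mating 2 were the desmosomal cadherin gene dsg4.L, at 0.218 and 0.112 CPM against 4.99 to 13.4 CPM, the secretogranin gene scg2.L, the chemokine gene cxcl13.L and the ganglioside synthase gene b4galnt1.L. The last 3 lay below 5 CPM in every embryo.

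In mating 3, agmo.L, of an enzyme that cleaves ether lipids, stood at 0.202 and 0.135 CPM against 8.36 to 24.6 CPM in the other embryos, a log2 difference of -6.35 ± 0.34 (SE; adjusted p = 0.000411, edgeR). The urea transporter gene slc14a2.L had 1 read in each mating 3 embryo and 4.56 to 6.60 CPM elsewhere. mef2c.S, of a MADS-box factor of muscle and heart, and ptchd1.L, of a Patched-related membrane protein, were likewise at 1 read in each embryo of mating 3. High in mating 3 were the lipoxygenase-related alox5-like.L (3.93 and 4.19 CPM), the scavenger receptor gene msr1.L (4.44 and 3.74 CPM) and the centriole assembly gene stil.S (7.97 and 4.64 CPM), each at most 0.167 CPM in the other matings.

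Among genes without a name, Xelaev18027349m.g had 5.90 and 4.14 CPM and Xelaev18028207m.g 5.80 and 2.34 CPM in mating 3, with 0 reads in the other 4 embryos. DESeq2 called neither (adjusted p = 0.284 and 0.310). Xelaev18047274m.g had 0 reads in mating 3 and 1.5 to 2.1 CPM elsewhere.

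**Figure D2:**
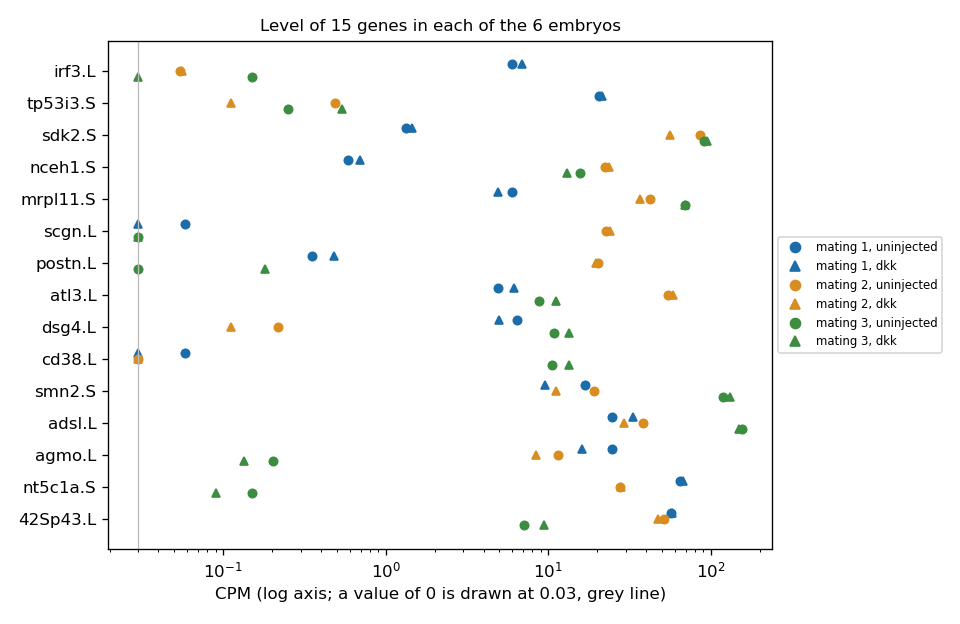
CPM (horizontal axis, log scale) of 15 genes in each of the 6 embryos, coloured by mating, with circles for uninjected and triangles for dkk embryos, and values of 0 drawn at the grey line. In each gene both siblings of 1 mating lie apart from the other 4 embryos, for example nt5c1a.S at 0.151 and 0.0901 CPM in mating 3. The genes were picked by rules that require this or after their values were seen.

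The genes in this paragraph were chosen after their values were seen. 42Sp43.L and 42Sp50.L encode proteins of the particle that stores transfer RNA and 5S RNA in young Xenopus oocytes. 42Sp43.L had 56.9 and 57.6 CPM in mating 1, 51.6 and 47.5 CPM in mating 2 and 7.11 and 9.46 CPM in mating 3, a log2 difference of -2.69 ± 0.19 (SE) for mating 3. 42Sp50.L was instead low in mating 1, at 15.5 and 11.7 CPM against 46.7 to 59.5 CPM elsewhere (-1.99 ± 0.20). The 2 genes therefore set different matings apart. atl3.L, of a GTPase that shapes the endoplasmic reticulum, reached 54.9 and 58.4 CPM in mating 2 against 4.90 to 11.2 CPM elsewhere. adsl.L, of an enzyme of purine synthesis, reached 156 and 149 CPM in mating 3 against 24.6 to 38.3 CPM. The centromere gene cenpf.L went from 345 and 280 CPM in mating 1 through 129 and 98.8 CPM in mating 2 to 62.2 and 43.7 CPM in mating 3.

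Of 110 tested rows for subunits of oxidative phosphorylation, the mitochondrial respiratory chain and ATP synthase, 47 were lower and 1 higher in mating 1, and 36 were higher and 1 lower in mating 3. By the F test 51 (46.4%) differed between matings, against 22.7% of all genes, of which 6.02% were lower in mating 1 and 10.2% higher in mating 3. The list's median log2 difference from the other matings was -0.56 in mating 1, 0.24 in mating 2 and 0.37 in mating 3, beside 0.01, 0.02 and 0.00476 for all tested genes. The ATP synthase gene atp5o.S had 12.9 and 15.7 CPM in mating 1, 46.8 and 36.6 CPM in mating 2 and 52.6 and 60.1 CPM in mating 3 (adjusted p = 0.0028, edgeR). uqcrc1.L, of complex III, had 25.7 and 29.0 CPM in mating 1, 66.4 and 53.4 CPM in mating 2 and 83.6 and 103 CPM in mating 3. In both genes the mating 1 siblings lay below every other embryo. Without control embryo 1, dkk embryo 1 or control embryo 2, the 47 calls became 11, 21 and 26. The 36 in mating 3 became 14 without control embryo 1, 17 without dkk embryo 1, 12 without dkk embryo 2 and 7 without dkk embryo 3.

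Ribosomal proteins of the mitochondrion, a list added after these values were seen, had 24 of 77 tested rows called (31.2%, beside 22.7% of all genes). Of the 77, 12 were lower and 2 higher in mating 1, where 6.02% of all genes were lower, and 17 were higher and 3 lower in mating 3, where 10.2% of all genes were higher. mrpl11.S had 5.95 and 4.88 CPM in mating 1, 42.3 and 36.9 CPM in mating 2 and 69.1 and 69.0 CPM in mating 3. mrps35.S ran the other way, from 17.9 and 10.8 CPM in mating 1 to 0.756 and 0.541 CPM in mating 3. mrpl40.S was also low in mating 3. The 12 calls in mating 1 became 2 without control embryo 1, 7 without dkk embryo 1 and 23 without control embryo 3. The 17 in mating 3 became 8, 9, 7 and 4 without control embryo 1, dkk embryo 1, dkk embryo 2 and dkk embryo 3.

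Of 40 tested rows for enzymes of redox and xenobiotic metabolism, 18 (45.0%, beside 22.7% of all genes) were called. In mating 1, 11 were lower and 4 higher, beside 6.02% and 7.24% of all genes. In mating 3, 11 were higher and 4 lower, beside 10.2% and 11.5% of all genes. The carbonyl reductase gene cbr1.L had 8.58 and 10.5 CPM in mating 1, 44.9 and 36.9 CPM in mating 2 and 65.9 and 78.4 CPM in mating 3, a log2 difference of -2.51 ± 0.20 (SE) for mating 1. sod1.L, of the cytosolic superoxide dismutase, had 50.3 and 52.4 CPM in mating 1 and 133 to 167 CPM elsewhere. The aldehyde dehydrogenase gene aldh9a1.S had 44.9 and 55.4 CPM in mating 1 and 110 to 138 CPM elsewhere. The 11 calls in mating 1 became 5 or 6 without either mating 1 embryo and 6 without control embryo 2, and the 11 in mating 3 became 7 without dkk embryo 3.

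Among factors that build ribosomes, a list added after the values were seen, 50 of 116 tested rows were lower and 2 higher in mating 3 by its own contrast, where 11.5% of all genes were lower. By the F test 49 (42.2%, beside 22.7% of all genes) differed between matings. In mating 1 the counts were 31 higher and 5 lower, where 7.24% of all genes were higher and 6.02% lower. The median log2 difference of mating 3 was -0.40. ppan.S, of a factor needed for the large subunit, had 134 and 137 CPM in mating 1, 82.1 and 98.4 CPM in mating 2 and 18.9 and 18.1 CPM in mating 3 (log2 difference -2.58 ± 0.15, SE; adjusted p = 0.00048, edgeR). The nucleolar helicase gene ddx21.S had 404 and 473 CPM, 336 and 340 CPM, and 122 and 111 CPM in matings 1 to 3. Both copies of nsa2, another factor of the large subunit, were lowest in mating 3, nsa2.S at 8.62 and 11 CPM. The count of 50 was between 37 and 58 without any 1 embryo. The 31 in mating 1 became 19 without either of its embryos.

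Splicing factors and hnRNPs, likewise added later, had 29 of 79 tested rows called (36.7%, beside 22.7% of all genes). By the contrasts of single matings, 21 were lower and 2 higher in mating 3, where 11.5% of all genes were lower and 10.2% higher. In mating 2, 13 were higher and 0 lower, beside 4.21% and 1.82% of all genes. snrnp70.L, of the U1 snRNP protein of that name, had 1340 and 1260 CPM in mating 1, 1050 CPM in both embryos of mating 2 and 481 and 362 CPM in mating 3. snrnp70.S followed it, at 476 and 402 CPM in mating 3 against 991 to 1210 CPM. The 21 calls in mating 3 became 12 without dkk embryo 3, and the 13 in mating 2 became 8, 2, 0 and 35 without control embryo 1, control embryo 2, dkk embryo 2 and control embryo 3.

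Zinc finger genes of the znf series had 22 of 87 tested rows called by the F test (25.3%), near the 22.7% of all genes. The contrasts of single matings are separate tests and can call more rows. By them 28 were lower and 3 higher in mating 3, where 11.5% of all genes were lower and 10.2% higher. In mating 1, 13 were higher and 1 lower, beside 7.24% and 6.02% of all genes. The median log2 difference was -0.38 in mating 3 and 0.26 in mating 1. znf638.S had 587 and 528 CPM in mating 1, 304 and 308 CPM in mating 2 and 177 and 158 CPM in mating 3. The 28 calls became 16, 17, 14 and 9 without control embryo 1, dkk embryo 1, dkk embryo 2 and dkk embryo 3. The 13 became 4, 6, 8 and 29 without control embryo 1, dkk embryo 1, control embryo 2 and control embryo 3.

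Cytoplasmic ribosomal proteins were called in 35 of 58 tested rows (60.3%, beside 22.7% of all genes). By the contrasts of single matings, 23 were higher and 0 lower in mating 2, where 4.21% of all genes were higher and 1.82% lower. In mating 1, 13 were lower and 2 higher, beside 6.02% and 7.24% of all genes. In mating 3, 12 were lower and 0 higher, beside 11.5% and 10.2% of all genes. rpl5.L had 135 and 185 CPM in mating 1, 275 and 322 CPM in mating 2 and 198 and 199 CPM in mating 3. rpl19.S, in contrast, was lowest in mating 3, at 39.4 and 53.3 CPM against 85.3 to 144 CPM in the other 4 embryos (log2 difference -1.28 ± 0.12, SE; adjusted p = 0.00164, edgeR). The 23 calls in mating 2 rest on both of its embryos: they became 1 without control embryo 2 and 0 without dkk embryo 2, 9 without control embryo 1, 49 without control embryo 3 and 7 without the treatment term. They were 14 with upper-quartile scaling. The 13 in mating 1 became 0, 5, 7, 8, 22 and 34 when control 1, dkk 1, control 2, dkk 2, control 3 and dkk 3 were left out, and the 12 in mating 3 became 6 without dkk embryo 3.

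**Figure D3:**
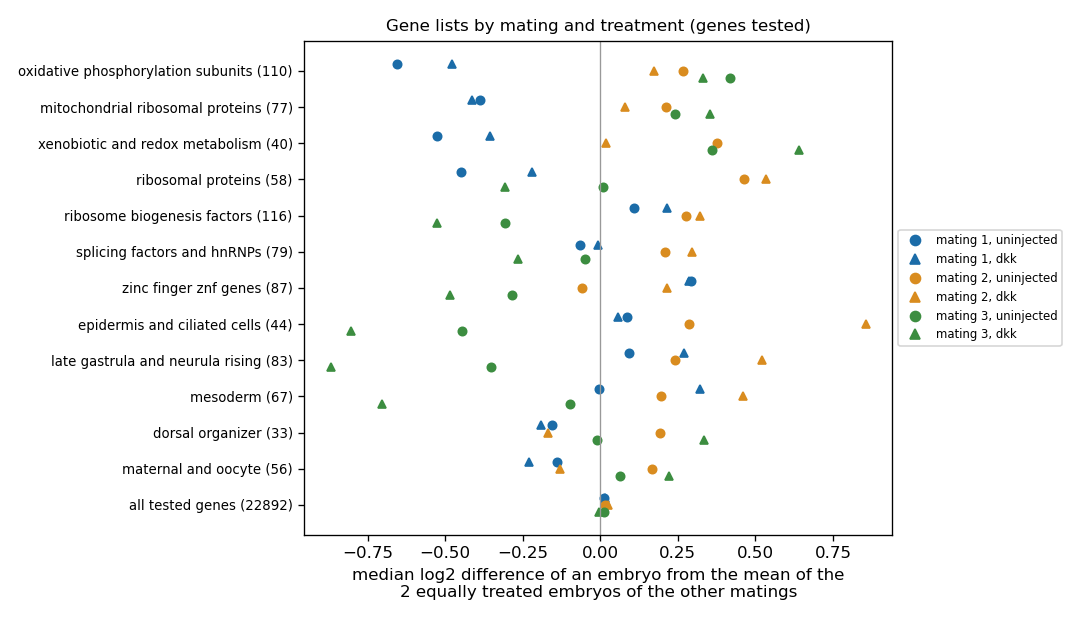
Median log2 difference (horizontal axis) of each embryo from the mean of the equally treated embryos of the other 2 matings, for 12 gene lists and all tested genes, with the number of genes tested in brackets. Circles are uninjected and triangles dkk embryos, and oxidative phosphorylation subunits lie at -0.655 and -0.478 in mating 1 and at 0.419 and 0.332 in mating 3.

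Of 44 tested rows for epidermis and ciliated cells, 17 were lower and 6 higher in mating 3, and 10 were higher and 1 lower in mating 2. Of all genes, 11.5% were lower and 10.2% higher in mating 3, and 4.21% were higher and 1.82% lower in mating 2. By the F test 22 (50%) were called, beside 22.7% of all genes. ocln.S, of the tight junction protein occludin, had 216 and 172 CPM in mating 1, 171 and 140 CPM in mating 2 and 53.7 and 39.3 CPM in mating 3 (log2 difference -1.91 ± 0.12, SE; adjusted p = 0.000532, edgeR). The claudin gene cldn6.1.S, of the same junctions, ran the other way, from 52.7 and 58.4 CPM in mating 1 to 161 and 163 CPM in mating 3. krt8.2.S, a keratin gene, was also highest in mating 3, while the more abundant krt5.7.L was lowest there, a call lost without the treatment term (adjusted p = 0.122, edgeR). The summed level of the list was 10180 and 10520 CPM in mating 1, 11170 and 15030 CPM in mating 2 and 8495 and 7942 CPM in mating 3. The 17 calls became 10 without dkk embryo 3 or without the treatment term. The 10 in mating 2 became 0 without dkk embryo 2, 21 without control embryo 3, 17 with DESeq2 and 1 without the treatment term.

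Genes that rise late in gastrulation and in the neurula were called in 16 of 83 tested rows (19.3%, beside 22.7% of all genes), with 17 lower and 2 higher in mating 3 by its own contrast, where 11.5% of all genes were lower. Their median log2 difference in mating 3 was -0.66, or -0.351 between uninjected and -0.868 between dkk embryos. twist1.L, of a mesenchymal bHLH factor, had 11.4 and 7.67 CPM in mating 1, 11.9 and 8.42 CPM in mating 2 and 3.43 and 2.34 CPM in mating 3. The eye field gene rax.S was lowest in mating 3 as well. The 17 calls became 7 without dkk embryo 3, 37 without control embryo 3 and 7 without the treatment term. Genes with a transient peak in the early gastrula were called in 6 of 45 rows (13.3%, beside 22.7% of all genes). Of these rows 3 were lower and 2 higher in mating 3, beside 11.5% and 10.2% of all genes. In mating 2, 3 were higher, beside 4.21% of all genes.

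Of 5 lists of regional patterning genes, 4 had a share called below the 22.7% of all genes and the neural plate list a share above it, differences that were not tested. Of the dorsal organizer, the signalling centre of the gastrula, 2 of 33 rows (6.06%) were called, and of mesodermal genes 7 of 67 (10.4%). Among the latter, foxc1.S and cdx1.S were lower in mating 3 than in the equally treated embryos of the others, and both calls were lost without the treatment term (adjusted p = 0.389 and 0.707, edgeR). For endoderm it was 5 of 36 (13.9%), with foxa2.S at 28.7 and 29.6 CPM in mating 3 against 53.8 to 65.8 CPM. Neural plate genes were called in 8 of 29 rows (27.6%), among them the forebrain gene fezf2.L at 0.656 and 0.676 CPM in mating 3 against 2.92 to 5.67 CPM. By the contrast of mating 3, 5 endodermal rows were lower and 2 higher, and 6 neural plate rows were lower and 1 higher. Of all genes, 11.5% were lower and 10.2% higher there. The median log2 difference of mating 3 was 0.0468 for endoderm and 0.0164 for the neural plate. For endoderm it was -0.37 between uninjected and 0.294 between dkk embryos, and for the neural plate -0.111 and 0.142. Both lists were therefore lower in mating 3 by their median in uninjected embryos only, a difference between arms that was not tested. In the ventral and Bmp list 5 of 32 (15.6%) were called, and 5 were higher in mating 2, where 4.21% of all genes were higher. They include both copies of the ventralising homeobox gene ventx3.2, with ventx3.2.S at 70.1 and 59.4 CPM in mating 2 against 28.3 to 37.2 CPM. The call of ventx3.2.L was lost without the treatment term (adjusted p = 0.0643, edgeR).

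Maternal and oocyte genes were called in 20 of 56 rows (35.7%, beside 22.7% of all genes), 8 lower and 1 higher in mating 1 and 10 higher and 8 lower in mating 3. Of all genes, 6.02% were lower in mating 1, and 10.2% were higher and 11.5% lower in mating 3. Genes of the egg coat (zona pellucida) proteins were among those low in mating 1: zp4.2.L had 25.7 and 28.3 CPM in mating 1, 56.7 and 42.8 CPM in mating 2 and 65.0 and 68.3 CPM in mating 3. zp3.2.L had 5.25 and 5.15 CPM in mating 1 and 13.0 to 19.9 CPM elsewhere. The nuclear import gene kpna2.L ran the other way, from 284 and 290 CPM in mating 1 to 163 and 158 CPM in mating 3. The 8 calls in mating 1 became 2, 3, 4 and 17 without control embryo 1, dkk embryo 1, control embryo 2 and control embryo 3. The 10 higher in mating 3 became 1 without dkk embryo 3 and 19 without control embryo 3. The 8 lower in mating 3 became 5 with upper-quartile scaling, 4 without either mating 1 embryo, 5 without dkk embryo 2 and 3 without dkk embryo 3. Germ plasm genes had 1 of 21 rows called (4.76%), the Piwi gene piwil1.L, at 10.5 and 8.80 CPM in mating 1 against 1.00 to 1.85 CPM elsewhere.

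The remaining lists are given with their share called, to be read beside the 22.7% of all genes. Cell cycle genes were called in 15 of 68 rows (22.1%). The ribonucleotide reductase gene rrm1.S, of this list, had 72.4 and 78.3 CPM in mating 1 against 119 to 149 CPM elsewhere. By the contrast of mating 1, 10 rows of the list were lower there and 1 higher, beside 6.02% and 7.24% of all genes. Those 10 became 0, 2, 3, 6, 19 and 17 when control 1, dkk 1, control 2, dkk 2, control 3 and dkk 3 were left out. The p53 list had 6 of 39 (15.4%), and 5 were higher in mating 1, where 7.24% of all genes were higher. In it the cyclin G1 copy ccng1.L had 133, 29.3 and 16.3 CPM in control embryos 1 to 3 and 254, 87.4 and 43.7 CPM in dkk embryos 1 to 3, highest in mating 1 in both arms, and its call was lost without the treatment term (adjusted p = 0.122, edgeR). Proteasome subunits had 15 of 51 (29.4%), heat shock genes 11 of 58 (19.0%), cadherins 7 of 44 (15.9%), immune genes 2 of 15 (13.3%) and histone genes 2 of 10 (20%). Transposon-derived genes had 3 of 13 (23.1%), sex-linked genes 1 of 11 (9.09%) and genes of adult tissues 6 of 10 (60%), the last at a summed level of 28.3 to 42.9 CPM.

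The share of a gene's reads that came from its L copy was compared next, since a ratio within a library does not depend on depth. It differed between matings in 739 of 5275 homeolog pairs, or 14% (edgeR, adjusted p below 0.05), and 1618 pairs had an unadjusted p below 0.05. This count depended on the tool: limma on the log2 ratio of the copies, with 1 prior variance for pairs of any depth, called 0 pairs after adjustment, with 1106 at an unadjusted p below 0.05 and a smallest adjusted p of 0.0849. With a variance that follows depth, a setting added after that 0 was seen, limma called 369. Among the 739, the share moved by more than 20 percentage points in 269. Leaving out single embryos gave 374 without control 1, 367 without dkk 1, 1663 without control 3 and 1215 without dkk 3. Reads that align to both copies were not counted, so a variant that makes the copies more or less alike could alter the share, and this was not tested.

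The pairs described here were chosen after their values were seen, among those with the smallest p. nt5c1a had 48.6% and 43.8% of its reads on the L copy in mating 1, 68.7% and 70.4% in mating 2 and 99.8% and 99.9% in mating 3 (adjusted p = 4.8e-06, edgeR). For smn2, named after the survival motor neuron gene, the L share was 87.6% and 92.0% in mating 1, 88.7% and 92.0% in mating 2 and 50.9% and 49.4% in mating 3. The level of smn2.S was 119 and 131 CPM in mating 3 against 9.55 to 19.0 CPM elsewhere. In both pairs mating 3 lies apart from the rest.

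Other pairs set other matings apart. nceh1, of a cholesterol ester hydrolase, had an L share of 92.9% and 92.0% in mating 1, 32.3% and 33.4% in mating 2 and 30.0% and 23.0% in mating 3. For e2f5, of an E2F cell cycle factor, it was 58.3% and 56.8%, 24.4% and 25.8%, and 66.1% and 65.7% in matings 1 to 3. The peptidase gene thop1 had 45.0% and 45.4%, 60.9% and 68.2%, and 12.6% and 17.9%. In these pairs the 2 siblings of a mating lay closer to each other than to the embryos of the mating set apart. A small p favours pairs with close siblings, so this is no further result.

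The 8 pairs with the largest change of ratio were mostly of few reads. pcsk1, bnc2, adamts15 and hnf4a-like lay below 3 CPM in both copies in every embryo, and 3 of the 8 pairs passed a minimum of 50 reads per library. amer1, scgn and nt5c1a are described above. In dstn, of the actin-severing protein destrin, dstn.S had 20.5 CPM in dkk embryo 3, 1 read in its sibling and 0 elsewhere. That pair was therefore called on the strength of 1 embryo.

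**Figure D4:**
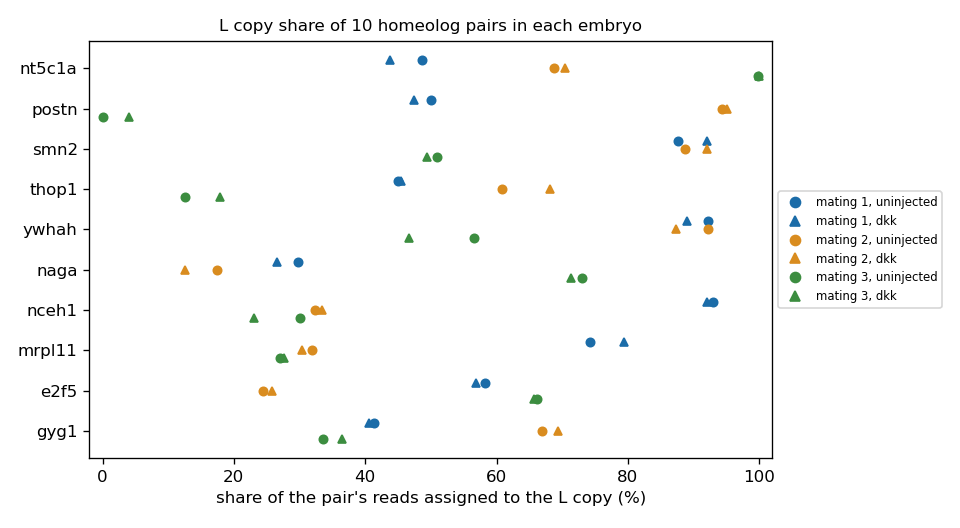
Share of a pair's reads assigned to the L copy (horizontal axis, percent) for 10 homeolog pairs in each embryo, coloured by mating, with circles for uninjected and triangles for dkk embryos. The pairs were picked after their values were seen, so that siblings lie close together in them is no further result. In nt5c1a the share runs from 43.8% in mating 1 to 99.9% in mating 3.

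The calls of the L and the S copy were also set side by side. Of 4142 genes with both copies tested, 346 had both copies called, 539 the L copy alone and 599 the S copy alone. A copy that was not called is not shown to be without a difference, and the copies were not compared by these counts. The S copy was called in 39.1% of genes whose L copy was called and in 22.8% of all these genes. Where both were called, 309 of 346 (89.3%) had the same sign in the contrast of the mating in which the L copy stood farthest apart. That share covers only genes with both copies called. Across genes, the log2 differences of mating 3 in the L and the S copy had a Pearson correlation of 0.345. L rows were called in 21.2% and S rows in 22.7%.

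Neighbouring genes on a chromosome were called together at a share near the background share or slightly above it, in every mating and direction. The gap was widest for genes low in mating 1. The differences were not tested. Genes were matched by symbol to the reference annotation, 9519 in number. The next gene was also low in mating 3 for 79 of 818 genes low in mating 3 (9.66%), beside 8.60% of all matched genes. In mating 1 the values were 50 of 579 (8.64%) beside 6.1% for low genes and 30 of 515 (5.83%) beside 5.41% for high genes. They were 56 of 666 (8.41%) beside 7.01% for genes high in mating 3. For mating 2 they were 19 of 412 (4.61%) beside 4.34% for high genes and 6 of 231 (2.6%) beside 2.43% for low genes.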

How the data were processed

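The authors deposited raw read counts per gene for each of the 6 embryos, with no normalization. Per the labels' protocols, RNA was extracted with Trizol and libraries were made with an Illumina TruSeq kit. The submitters' processing notes list TopHat2, SAMtools and HTSeq. Their versions and settings, the genome build and the annotation: not given in the sources used here. Summary rows without a gene stayed out of library sizes and tests. They held reads outside genes (7.58% to 8.80% of all counted), ambiguous ones (2.03% to 2.19%) and those aligned at more than 1 place (15.9% to 17.6%). Of 45099 gene rows, 35909 had a read. A table of the authors' own dkk comparison was not used.

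The test of the counts was run in edgeR 4.0.16 (R 4.3.3): filterByExpr by mating (minimum count 10, total 15), TMM scaling, robust dispersions and the quasi-likelihood F test of the 2 mating terms, with treatment as a covariate, adjusted by Benjamini-Hochberg over 22892 genes with a threshold of 0.05. The biological coefficient of variation was 0.208. Contrasts between matings, and of each mating with the mean of the others, came from the same fit, and their adjusted p-values count a gene separately. Log2 differences are fitted values with the standard error implied by the F statistic. CPM used TMM library sizes, and log2 values of single embryos a prior count of 2. Homeolog shares were tested in edgeR with the L and S counts of a library as 2 columns, a term per library, and copy by mating and copy by treatment terms. The procedures were tested on simulated data. A mating was taken from the label naming the mating pair, and an embryo is 1 library.

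The comparison, gene lists and members were chosen with earlier results of these data known. Genes were named by a rule: the 5 named genes with the largest difference for each mating and direction (mean of at least 1 CPM, both siblings apart from the other 4 embryos), up to 3 called genes per list, the 8 homeolog pairs with the largest change of ratio, genes near absence in 1 mating, and at most 2 genes without a name in each direction. Names starting with Xelaev, LOC, MGC or XB, and Xetrov after the data were seen, count as no name. Other genes were named after their values were seen: the list members quoted beyond the first 3, the homeolog pairs with the smallest p, and the abundant genes said to be so. The text gives values for a part of the genes picked in these ways, and 1 of them is not reported here. Symbols were matched to the annotation of Xenopus_laevis_v10.1 for gene order alone. Alternatives were DESeq2 size factors, upper-quartile scaling, DESeq2 1.42.0, limma-voom (limma 3.58.1), no filter, a filter of 1 CPM in 2 libraries, no treatment term, homeologs summed into 1 row, glmTreat with a fold of 1.5, each embryo or the uncompared mating left out, and for homeologs a minimum of 50 reads and limma on log2 ratios with a pseudocount of 0.5.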

Additional observations from a re-analysis of the deposited data

Results flagged for a closer look

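For some gene lists the median log2 difference of a mating from the other 2 had opposite signs in the treatment arms. Each arm holds 1 embryo of each mating, the differences between the arms were not tested, and many of the medians lie near 0. Values below are the median between uninjected embryos and then that between dkk embryos, with their gap (uninjected minus dkk) in brackets.

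In mating 3, cytoplasmic ribosomal proteins lay at 0.00841 and -0.308 (0.316), the first of them near the 0.0104 of all tested genes. Endodermal genes lay at -0.37 and 0.294 (-0.664) and germ plasm genes at -0.381 and 0.21 (-0.591). The small lists of innate immunity (0.269 and -0.727, 0.996) and sex-linked genes (-0.486 and 0.745, -1.23) had the widest gaps. The gap was -0.294 for early gastrula genes, -0.346 for the dorsal organizer, -0.253 for the neural plate and -0.128 for cadherins, all with the higher median in dkk embryos. It was 0.126 for cell cycle genes, 0.443 for transposon-derived genes, 0.193 for histone genes and 0.267 for proteasome subunits, with the higher median in uninjected embryos.

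In mating 1, germ plasm genes lay at 0.292 and -0.332 (0.624), endodermal genes at 0.126 and -0.394 (0.52) and sex-linked genes at 0.247 and -0.279 (0.526). The gap was 0.175 for transposon-derived genes, -0.203 for the ventral and Bmp list, -0.325 for mesoderm, -0.226 for the neural plate and -0.0599 for heat shock genes.

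In mating 2, innate immunity genes lay at -0.475 and 0.0816 (-0.557), the dorsal organizer at 0.193 and -0.17 (0.363) and endodermal genes at 0.333 and -0.00729 (0.34). The gap was 0.297 for maternal and oocyte genes, 0.219 for germ plasm genes, 0.193 for the neural plate, -0.221 for transposon-derived genes and -0.275 for zinc finger genes.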

How the results depend on the processing

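No paired analysis was possible because the replicate number is the mating pair, which is the effect tested. DESeq2 size factors, upper-quartile scaling, DESeq2, limma-voom, 1 CPM in 2 libraries and summed copies kept every total of differing genes within 1.5 times. By direction, the 416 genes lower in mating 2 than in the others became 648 with DESeq2. Without a filter, 2247 genes differed between matings 2 and 1 and 2540 between mating 2 and the others, and without the treatment term the latter was 890. Against a fold of 1.5, 382 genes differed between matings 2 and 1, 1588 between 3 and 1 and 804 between 3 and 2, and 717, 254 and 1238 between matings 1, 2 and 3 and the others. Leaving out embryos gave 3734 to 8525 genes in the F test, 368 to 3584 for matings 2 and 1, 1950 to 6766 for 3 and 1, 734 to 5805 for 3 and 2, 1002 to 5577, 262 to 4403 and 1950 to 6706 for matings 1, 2 and 3 against the others, and 367 to 1663 homeolog pairs. A mating left with 1 embryo is assumed to vary like the others. The homeolog count was the least stable across tools: limma called 0 pairs, or 369 with a variance following depth, an alternative added after the 0 was seen. Between arms, correlations in genes of at least 10 CPM were 0.744 for matings 2 and 1 and 0.739 for 3 and 1. Of 116 called genes picked by the rule or afterwards, not all of them described here, some lost their call when 1 embryo was left out. Of those described, morc1.S lost it. A gene that fell below the filter in such a fit was not tested there, as was the case for podxl.L without dkk embryo 1. DESeq2 lost 5 of the 116 calls, among them amer1.S, tbl1x.S, Xelaev18027349m.g and Xelaev18028207m.g. The fit without the treatment term lost 13, among them ccng1.L, cdx1.S, foxc1.S, krt5.7.L, podxl.L and ventx3.2.L. nt5c1a.L was not called, and its log2 difference of mating 1 from the others was -0.153. That difference ran from -0.325 without control embryo 1 to 0.0138 without dkk embryo 1. With 2 embryos a mating and 17460820 or more reads, a gene that was not called is not shown to be without a difference.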
